A study of Mus musculus and Homo sapiens with 41 samples.

Results

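Replication-dependent histone genes were followed in GMPs (granulocyte-monocyte progenitors) that carried or lacked functional PLZF, and in the 416b myeloid cell line upon PLZF expression. Members were selected on measured values: of the 53756 genes listed for GMPs, 70 have a symbol that begins with Hist1h, Hist2h, Hist3h or Hist4h, and 69 of them had a normalized count of at least 10 in at least 2 of the 4 GMP libraries. All 69 reached that value in all 4 libraries, so none passed through one genotype alone. Just outside the threshold was Hist1h2aa, a testis-type H2A gene, with 4.97 and 0.964 in WT and 9.25 and 2.01 in mutant GMPs. Just inside were Hist1h1t, the testis linker histone, with 22.9, 28.9, 46.3 and 44.2, and Hist3h2ba with 40.8, 51.1, 63.7 and 81.3 in the same order of libraries. By class the members comprise 6 H1, 19 H2A, 19 H2B, 12 H3 and 13 H4 genes, and by cluster 55 belong to Hist1 on chromosome 13, 10 to Hist2 on chromosome 3, 3 to Hist3 on chromosome 11 and 1 is Hist4h4 on chromosome 6.

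GMPs were sorted as Lin- c-Kit+ Sca-1- Cd34+ FcγR+ cells from lethally irradiated Cd45-1 recipients that had been grafted with bone marrow of WT or Zbtb16lu/lu (luxoid) C57BL/6 mice. Both groups are therefore regenerated marrow, and the age of the donors was not given in the sources used here. The luxoid allele is a germline loss of PLZF function, present in every donor cell and not only in GMPs. Cells of 416b, a murine Cd34+ myeloid line, carried either an Empty vector or PLZF-Flag, were sorted for GFP, and gave 1 library each. PLZF itself, a transcription factor encoded by Zbtb16, had normalized counts of 705 and 828 in WT and 369 and 269 in mutant GMPs (log2 fold change -1.28 ± 0.20 SE, limma adjusted p = 0.299), and of 382 and 2541 in Empty vector and PLZF-Flag cells. GMP markers fitted the gate: Mpo, the myeloperoxidase of the granule lineage, lay between 477326 and 552003 in every GMP library. In 416b cells Kit and Cd34 were abundant (6434 and 11059 in Empty vector), but Mpo was at 12.1 and Elane was not listed.

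The 2 libraries of each genotype are named here by the date stamp in their column headers. WT-A and lu/lu-A share a stamp, whereas WT-B and lu/lu-B each have their own, and what the stamp marks is not given. Values are normalized counts, that is, reads per gene divided by a library size factor. GEO holds 1 sample per genotype and the values come as 2 library columns for each, whereas the study's methods describe more separate RNA extractions than there are columns. What separates the columns is therefore not certain, and p-values measure only the spread between these libraries. Depth was similar: the values of each GMP library were whole multiples of 1 number, and the multiples summed to between 37562999 and 40170636.

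Replication-dependent histone genes encode the bulk of chromatin protein and are switched on as cells copy their DNA. Core histones H2A, H2B, H3 and H4 form the nucleosome, and H1 binds the linker DNA between nucleosomes. Their mRNAs differ from nearly all others in that they end in a stem-loop instead of a poly(A) tail. The stem-loop binding protein SLBP and the U7 snRNP direct the cut after it, and the same element brings the mRNA to decay when replication stops. NPAT gathers the transcription machinery at the clusters. The genes are small, lie close together and often encode the same protein, which bears on how reads can be assigned to them.

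The stem-loop could be read from the genome (mm10, GENCODE M21 models). Within 150 bases after the stop codon, 65 of 67 histone genes with a coding sequence held a 16-base stem-loop of 6 paired bases, compared with 5 of 21871 other protein-coding genes (0.023%). One site per class is shown because the class difference lies in the stem itself, and a second H4 gene shows the other H4 stem. Each is given 5′ to 3′ on the gene's strand with the stem-loop in capitals.
Hist1h1c, chr13:23739507-23739536 (+): caaaaGGCTCTTTTCAGAGCCaccactccc
Hist1h2ag, chr13:22042474-22042503 (-): acaaaGGCTCTTTTCAGAGCCacctaacct
Hist1h2bb, chr13:23747198-23747227 (+): ccaaaGGCTCTTTTAAGAGCCacccacact
Hist1h3e, chr13:23561894-23561923 (-): aaaacGGCTCTTTTAAGAGCCacctccatt
Hist1h4d, chr13:23581945-23581974 (+): ccaaaGGCCCTTTTCAGGGCCactaccttc
Hist1h4j, chr13:21735432-21735461 (+): ctaaaGGTCCTTTTCAGGACCaccacatct
All matched H1, H2A, H2B and H3 genes had a GGCTC stem, whereas H4 genes had a GGCCC stem, or in 2 genes a GGTCC stem. No match was found in this window for Hist1h2an or Hist2h2be. The 3 members annotated as pseudogenes (Hist1h2aj, Hist1h2al and Hist3h2bb-ps) have no annotated stop codon and were not searched.

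Promoters were examined because the members lay together in the direction of their difference between genotypes. RefSeq promoter windows (GRCm38.p6, 250 bases before to 50 after the start) were matched for 60 of the 69 members, and 3 motifs were searched on both strands. CCAAT was present in 51 of 60 windows against 37.4% of all 32851 promoters, and in every window of the H1, H2A, H2B and H3 classes but in 3 of 12 H4 windows. TATAAA was present in 33 of 60 windows against 13.6% of all. The octamer ATTTGCAT was present in 6 of 17 H2A and 6 of 16 H2B windows, in none of the H1, H3 and H4 windows, and in 1.74% of all promoters. Several H2A and H2B genes stand head to head, so their windows overlap and are not separate observations. Hist1h2bb, the H2B gene next to the highest in level per kb, holds all 3 motifs, capitalised in the 250 bases before its start (no motif overlaps another).
Hist1h2bb promoter, chr13:23746484-23746733 (+): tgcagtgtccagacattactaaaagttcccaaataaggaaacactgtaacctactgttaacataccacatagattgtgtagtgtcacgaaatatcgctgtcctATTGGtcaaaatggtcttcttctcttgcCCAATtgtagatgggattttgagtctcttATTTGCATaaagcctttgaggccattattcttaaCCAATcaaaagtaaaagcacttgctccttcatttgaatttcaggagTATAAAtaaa

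In GMPs, all 69 members had a higher mean log2 value in Zbtb16lu/lu than in WT, although no single gene passed the test. In bulk samples a difference in the number of cells in S phase and one in histone mRNA per cell cannot be told apart. The fitted log2 fold changes ran from 0.12 to 2.47 with a median of 0.88, beside a median of -0.01 over the 20531 genes tested. Both mutant libraries lay above both WT libraries for 65 of the 69 members, against 21.7% of all genes tested. The exceptions were Hist1h1b, Hist2h2bb, Hist1h3g and the pseudogene Hist3h2bb-ps, whose groups overlapped. At an unadjusted p under 0.05, 59 members were higher and 0 were lower, against 5.5% of all genes that were higher at that p. With Benjamini-Hochberg adjustment in limma, 0 of 20531 genes (0%) were below 0.08, the threshold used by the study, and the members' adjusted p ran from 0.299 to 0.813. That count depended on single libraries. Refitted without WT-A, 63 members were below 0.08, against 22.7% of all genes, and without WT-B 55 members were, against 13.4%. Without lu/lu-A the fit gave 30 members against 0.312% of all genes, and without lu/lu-B it gave 0 members against 0.00487%. Each of these refits takes the spread of the lone library from the other pair. Without WT-B, 34 of the 69 log2 fold changes were smaller by over 1.5 times, and without WT-A 18 were larger by as much.

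The 4 libraries did not fall into 2 tight groups. For 60 of 69 members the order was WT-B, WT-A, lu/lu-A and lu/lu-B from low to high, an order found for 7.03% of all genes tested. WT-A was above WT-B for 64 members, with a median difference of 0.59 on the log2 scale. Lu/lu-B was above lu/lu-A for 66 members, with a median difference of 0.37. Within the shared stamp, lu/lu-A was above WT-A for 66 members with a median of 0.43, which is smaller than the median difference between the WT libraries. Between the other pair, lu/lu-B was above WT-B for all 69 members with a median of 1.37. The shared-stamp difference exceeded the member's own WT-A to WT-B difference for 22 of 69 members, and the fitted log2 fold change did so for 49. Each of these pairs is 1 library against 1, and genotype and stamp cannot be told apart in the other pair.

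**Figure D1:**
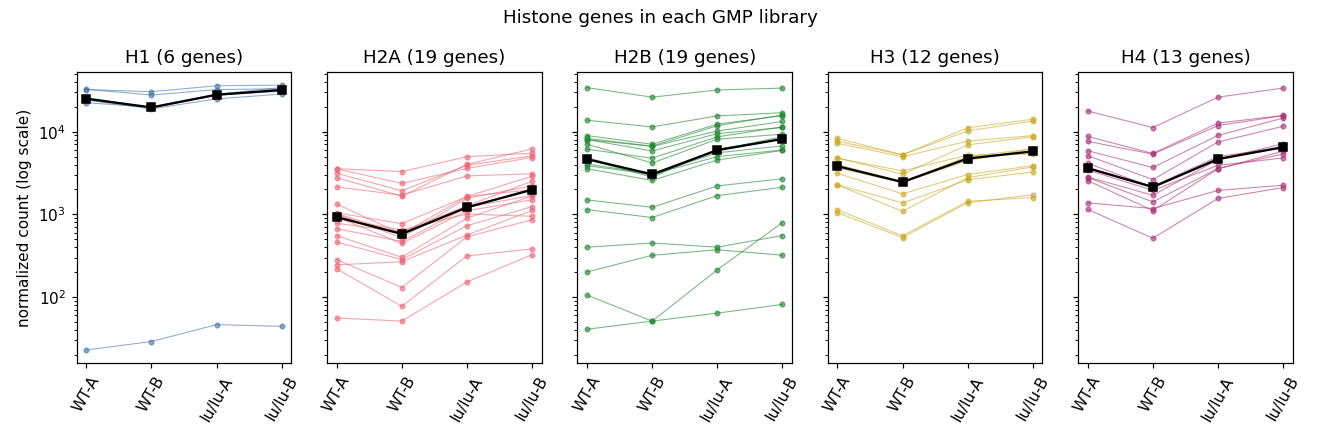
Normalized count (log axis) of each histone member in the 4 GMP libraries, 1 panel per class. Coloured points joined by a line are 1 gene and black squares are the class median. Most lines dip at WT-B and are highest at lu/lu-B, and the H1 lines are the flattest.

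H4 genes had the highest difference of the summed values. All 13 encode the same protein, all 13 had separated groups, and their log2 fold changes lay between 0.72 and 1.43 (median 1.09, and 0.69 without WT-B). Hist1h4d, the H4 gene with the highest normalized count, had 17764 in WT-A, 11226 in WT-B, 26152 in lu/lu-A and 33723 in lu/lu-B (log2 fold change 1.07 ± 0.21 SE, limma adjusted p = 0.299). The mutant libraries were both above the WT libraries, and the WT libraries also stood apart from each other. Per kb of annotated exon, Hist1h4f, Hist1h4k and Hist1h4d had the highest H4 levels, at 25847, 21546 and 19522 normalized counts per kb averaged over the 4 libraries. The largest H4 difference was that of Hist1h4j, with 2560 and 1111 in WT and 3554 and 5808 in mutant GMPs (1.43 ± 0.36 SE), followed by Hist1h4a (1.38 ± 0.26). Hist1h4i had the smallest, with 1377 and 1176 in WT and 1944 and 2251 in mutant (0.72 ± 0.14). Hist2h4, on chromosome 3, was next (0.74 ± 0.24). These ranks depended on the libraries compared. Within the shared stamp Hist1h4j was at 0.47 and Hist1h4a at 0.70, and Hist1h4i was at 0.50 and Hist2h4 at 0.19.

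H2A genes had the lowest summed level and the largest median log2 fold change, 1.28 (range 0.37 to 2.04), with all 19 groups separated and 18 of 19 at an unadjusted p under 0.05. That rank rests on copies that share sequence: among members with over 80% of 100-base exonic windows found in no other histone gene, the median was 0.76 for H2A (6 genes) and 1.03 for H4 (7 genes). Without WT-B the median over all 19 H2A genes was 0.84. Levels per kb depend on the annotated exon length. Hist3h2a had a higher mean normalized count than Hist1h2ak (4333 against 3660), but exon models of 2146 and 393 bases reverse their order per kb. Hist1h2ak, the highest H2A gene per kb of exon (9314), had 2780 and 1655 in WT-A and WT-B and 4024 and 6182 in lu/lu-A and lu/lu-B (1.22 ± 0.26 SE). Hist1h2ab, next in level per kb (7599), differed little, with 3553, 2363, 3592 and 4869 (0.53 ± 0.21). Its WT-A and lu/lu-A values were nearly equal, so its separation rested on a narrow gap. Hist2h2ac, the other H2A gene near the top, had 3136, 1927, 3922 and 5108 (0.86 ± 0.22). The largest difference was that of Hist1h2aj, annotated as a pseudogene, with 55.7, 51.1, 152 and 324 (2.04 ± 0.37). Hist2h2aa2 came next, with 283, 130, 535 and 859 (1.81 ± 0.36), and Hist2h2ab was last, with 879, 648, 1010 and 947 (0.37 ± 0.18). For Hist1h2aj and Hist2h2aa2, 8.3% and 0% of 100-base windows were found in no other histone gene, so their values are hard to assign.

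H2B genes ranged widely in level, and 17 of 19 had separated groups (median log2 fold change 0.78, range 0.14 to 2.47). Hist2h2bb, the highest member of all per kb of exon (82623), had 34117, 26159, 31970 and 33671 in WT-A, WT-B, lu/lu-A and lu/lu-B (0.14 ± 0.15 SE). Here WT-A exceeded both mutant libraries. Hist1h2bb, whose promoter is shown above, had 13750, 11425, 15530 and 16952 (0.37 ± 0.13), and Hist1h2bn had 8298, 6685, 11817 and 15919 (0.88 ± 0.17). The largest difference of any member was that of the testis-type gene Hist1h2ba, with 105, 51.1, 213 and 792 (2.47 ± 0.56). It was 1.52 without lu/lu-B, and lu/lu-A was 1.01 above WT-A on the log2 scale. Hist1h2bc followed at 0.98 ± 0.23, and the pseudogene Hist3h2bb-ps had overlapping groups (401, 449, 401 and 554).

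For H3 the median log2 fold change was 0.86 (range 0.40 to 1.06), with 11 of 12 groups separated and 11 of 12 at an unadjusted p under 0.05. The median was 0.49 without WT-B. Hist1h3b, the highest H3 gene per kb of exon (11632), had 7221, 4973, 7687 and 8966 in WT-A, WT-B, lu/lu-A and lu/lu-B (0.47 ± 0.18 SE, and 0.20 without WT-B). Hist1h3e, nearly level with it (11617 per kb), had 8296, 5254, 11142 and 14155 (0.93 ± 0.21). Hist1h3i (10762 per kb) had 4011, 2487, 4997 and 6197 (0.82 ± 0.21), and its mutant values were both above its WT values. Hist2h3c2 (1.06 ± 0.29) and Hist2h3b (1.04 ± 0.30) had the largest differences and Hist1h3d (0.40 ± 0.16) the smallest. This rank depended on the libraries compared. Within the shared stamp Hist2h3c2 was at 0.40 and Hist2h3b at 0.30, below Hist1h3c at 0.52. Divided by protein sequence, the 4 genes that share the product of Hist1h3a had a median of 0.77 and the 7 that share that of Hist1h3b had 0.93, with ranges that overlapped (0.54 to 0.83 and 0.40 to 1.06).

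H1 had the lowest class median and, apart from 1 gene, high levels. All but 1 of the 6 lay between 18888 and 36603 in every library, and the exception was the testis gene Hist1h1t. Hist1h1a had 32289, 30458, 35943 and 36603 in WT-A, WT-B, lu/lu-A and lu/lu-B (0.21 ± 0.11 SE), and Hist1h1b had 32690, 27735, 32331 and 33120 (0.12 ± 0.13). The groups of Hist1h1b overlapped, because WT-A was above lu/lu-A. Hist1h1c had 22389, 19854, 28376 and 34269 (0.56 ± 0.13), and Hist1h1t, at very low values, had 0.79 ± 0.42. The class median was 0.35, with 0.17 without WT-B and 0.54 without WT-A, and 2 of the 6 were at an unadjusted p under 0.05.

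Summed over members, histone genes took 0.997% and 0.767% of all normalized counts in WT-A and WT-B and 1.24% and 1.47% in lu/lu-A and lu/lu-B. The log2 fold change of the sums was 0.63 over all members, 0.30 for H1, 0.95 for H2A, 0.58 for H2B, 0.78 for H3 and 1.11 for H4. Both mutant sums exceeded both WT sums in every class, and the exact permutation p was 0.333 for each (two-sided, 6 sums tested), the smallest that 2 libraries against 2 can give. H1 made up 34.5% and 39.3% of the histone counts in WT-A and WT-B and 31% and 27.8% in lu/lu-A and lu/lu-B, whereas H4 made up 16.8%, 13.7%, 20% and 22.4%. The mean log2 value of the core members minus that of H1 was -1.98 and -2.43 in WT and -1.80 and -1.47 in mutant GMPs, a difference of 0.57 (exact permutation p = 0.333, two-sided, again the smallest possible). Within the shared stamp the differences of the sums were 0.27 over all members, 0.12 for H1, 0.43 for H2A, 0.24 for H2B, 0.30 for H3 and 0.52 for H4.

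**Figure D2:**
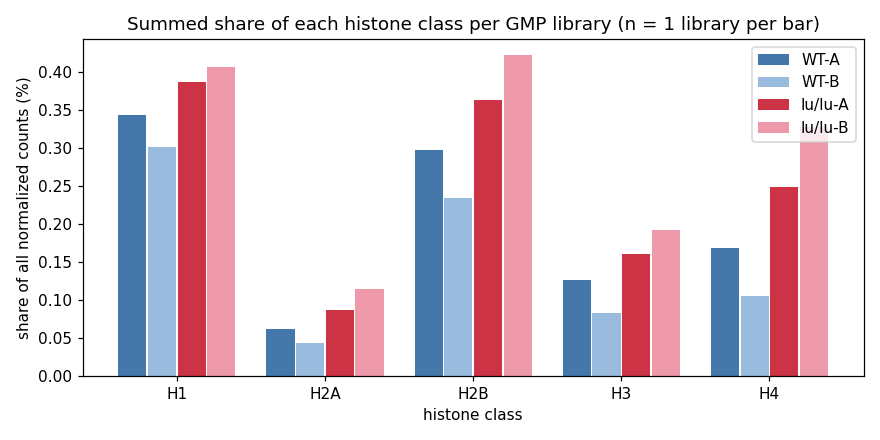
Share of all normalized counts (percent) taken by each histone class in each GMP library, 1 bar per library. In every class both lu/lu bars stand above both WT bars, and the H1 bars differ least in proportion.

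**Figure D3:**
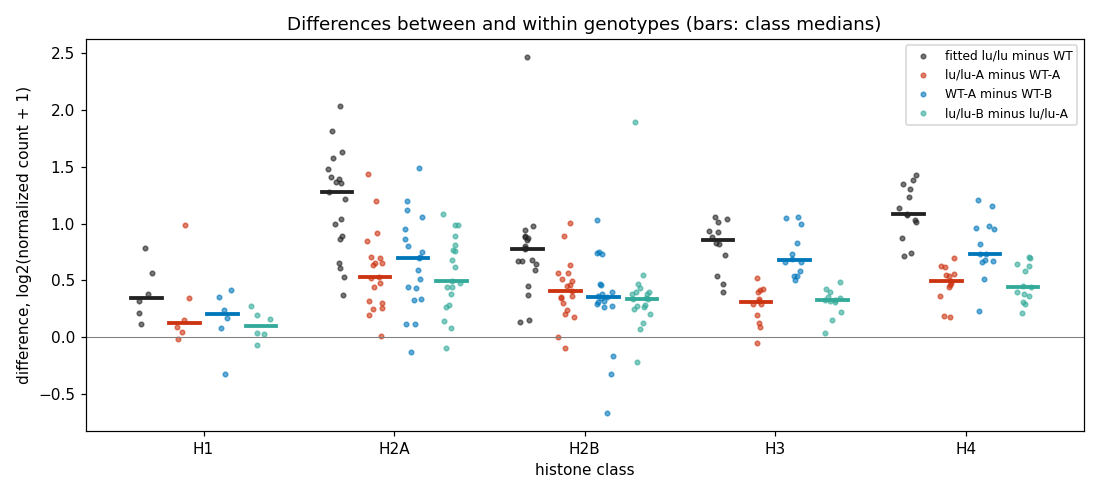
Differences on the log2(normalized count + 1) scale by class, for the fitted lu/lu minus WT contrast, the pair with a shared stamp, the WT libraries and the lu/lu libraries. Points are genes and bars are class medians. The WT-A minus WT-B median lies above the shared-stamp median in H1, H2A, H3 and H4 and below it in H2B.

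Members were also grouped by position in the genome. The 3 blocks of the Hist1 cluster had median log2 fold changes of 0.89 (19 genes), 0.94 (5 genes) and 0.83 (29 genes), and Hist2 had 0.90 (10 genes). The 3 Hist3 genes had 0.61, and Hist4h4 had 1.02. Level and difference went in opposite directions across members (Spearman's rho -0.42 between mean normalized count and log2 fold change, 69 genes that share the same 4 libraries, so a description only). Copies that share sequence are less certain. For 13 members fewer than 20% of 100-base exonic windows were absent from every other histone gene, and their median was 1.28. For 25 members more than 80% of windows were, and their median was 0.67, with 22 of 25 groups separated. The headers name uniquely mapped reads, and the part of read assignment in this gap was not tested.

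Genes that make, process or degrade histone mRNA had values closer to 0. Of 17 measured genes of histone mRNA 3-prime processing and decay, 6 had a positive log2 fold change (median -0.09), 1 had both mutant libraries above both WT libraries, and 6 had both WT libraries above both mutant libraries, as did 22.1% of all genes tested. Slbp, which encodes the stem-loop binding protein, had 3827 and 3106 in WT-A and WT-B and 3967 and 4008 in lu/lu-A and lu/lu-B (0.21, limma adjusted p = 0.603). Lsm10 (0.05) and Lsm11 (-0.11) of the U7 snRNP, Zfp473 (-0.12) and Casp8ap2 (-0.12) were close to 0. Of 14 transcription and locus body genes, 3 were positive (median -0.10), and 9 had both WT libraries above both mutant libraries. Npat was at -0.03, Hinfp, an activator of H4 genes, at 0.02, and Ccne2, a cyclin that activates NPAT through CDK2, at -0.38. Histone chaperones had a median of -0.09 (4 of 13 positive), with Nasp at -0.09 and Asf1b at -0.09.

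Cell cycle lists were read in the same 4 libraries. Of 46 S phase and DNA replication genes, 25 were positive (median 0.02), with Mcm2 and Pcna at 0.16 and Ccna2 at -0.27. Summed, the S phase genes had 350599 and 322541 in WT-A and WT-B and 341058 and 354889 in lu/lu-A and lu/lu-B. WT-A was above WT-B for 35 of them (10463 of all 20531 genes tested), and lu/lu-B above lu/lu-A for 36 (11133 of all). At an unadjusted p under 0.05, 2 of the 46 were higher, Cdt1 (0.53) and Pold1 (0.48), against 5.5% of all genes. Only Ccna2 was lower, against 898 of all 20531 genes. Both mutant libraries lay above both WT libraries for 10 of the 46, against 21.7%, and below them for 5, against 22.1%. The 22 G2/M genes were all negative with a median of -0.24, and 16 had both WT libraries above both mutant libraries, against 22.1% of all genes. Their summed normalized counts were 190456 and 220273 in WT and 174090 and 170231 in mutant GMPs. Of 11 replication-independent histone variants, whose production is not tied to S phase as a rule (H2afx also makes a stem-loop mRNA), 8 were positive (median 0.33). Both mutant libraries lay above both WT libraries for 7 of the 11, against 21.7% of all genes, and 5 were higher at an unadjusted p under 0.05, against 5.5%. H2afx, whose product marks DNA breaks when phosphorylated, had 3363, 2854, 4082 and 5087 (0.56). The range was wide, from H2afz at -0.35 to H1fx at 1.07, the latter between 18.9 and 56.2 normalized counts.

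Other RNAs without a poly(A) tail were also higher in both mutant libraries when summed. Of 17 measured, 15 had a positive log2 fold change (median 0.64), and their sum was 478561 and 281536 in WT-A and WT-B and 649957 and 721622 in lu/lu-A and lu/lu-B. The sum, carried mostly by Rn7sk, Rpph1 and Rmrp, had the library order of most histone members, and gene by gene 6 of the 17 followed it (35.3%, against 7.03% of all genes tested). Both mutant libraries lay above both WT libraries for 10 of the 17, against 21.7%, and 7 were higher at an unadjusted p under 0.05, against 5.5%. Rn7sk, which restrains transcription elongation, had 303788, 195875, 401098 and 440208 (0.78), and Rpph1, the RNA of RNase P, had 92581, 36481, 142072 and 165632 (1.40). Rmrp was at 1.09, Terc at 0.80 and Rny1, at low values, at -1.74. None passed adjustment in limma (the lowest adjusted p in that list was 0.326). The libraries came from rRNA-depleted total RNA, and the part of RNA composition in the histone difference was not tested.

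Markers of other cells were checked in the same way. Mature neutrophil markers had sums of 1773 and 1074 in WT-A and WT-B and 2283 and 4717 in lu/lu-A and lu/lu-B, again in the order of the histone genes. The name is that of the list (Ltf, Camp, Ngp, Lcn2, Mmp8, Cxcr2 and Retnlg), whose genes need not belong to a single stage of maturation. All 7 were positive (median 2.29), 5 had both mutant libraries above both WT libraries (21.7% of all genes), 3 followed that order gene by gene (7.03% of all genes), and none was at 0 in any library. Lcn2 (801, 513, 597 and 783) and Cxcr2 (216, 320, 299 and 308) had overlapping groups, whereas Ltf, a secondary granule protein, went from 56.7 and 11.6 to 305 and 846. Monocyte or macrophage markers (5 of 6 measured, all positive) summed to 42507 and 51472 in WT and 59787 and 63254 in mutant, where WT-B was above WT-A. GMP markers had a median of 0.14 (6 of 7 positive), stem cell markers -0.20 (1 of 3), erythroid -0.19 (3 of 6), megakaryocyte -0.83 (0 of 4) and mast cell or basophil -0.30 (0 of 4). Of the lymphoid lists only 2 of 5 B cell genes (0.18 and 0.79) and 1 of 4 T and NK cell genes (-0.02) passed the value filter, and Cd3e and Trbc2 were at 0 in at least one library. Per the study's methods, marrow was depleted of cells bearing Cd11b, Gr-1, 7-4, B220, Cd5 or Ter-119 before Lineage- c-Kit+ GMPs were sorted, a gate that would remove most mature cells. The part of these cells in the histone difference was not tested.

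**Figure D4:**
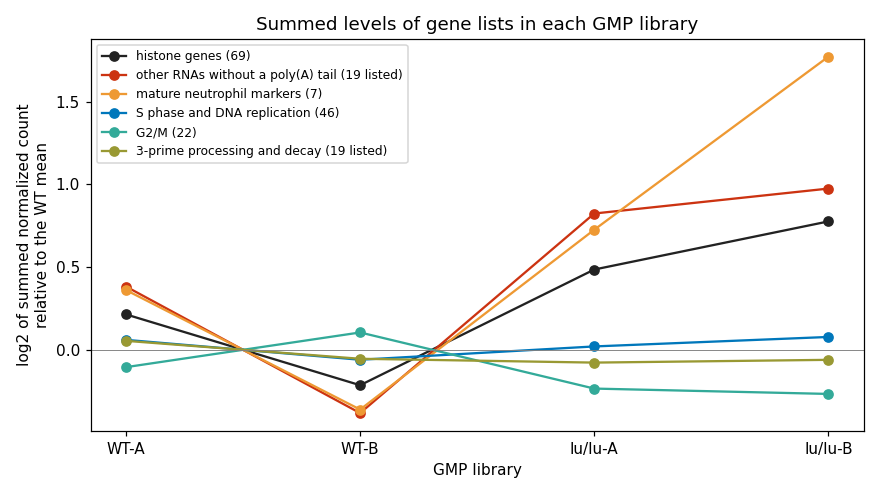
Summed normalized count of each gene list per GMP library, as log2 relative to the WT mean (points joined by list, n = 1 library each). Histone genes, other RNAs without a poly(A) tail and mature neutrophil markers dip at WT-B and are highest at lu/lu-B. S phase genes do so over a narrower range, whereas G2/M genes run the other way.

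Histone genes had low values in the 416b libraries. These were made from SMART-Seq cDNA, a poly(A)-primed chemistry, so levels were not compared by test between the experiments. Of the 69 members, 65 were listed, 57 had a mean normalized count of at least 10 and 10 had at least 100. Together they took 0.016% of all normalized counts in Empty vector and 0.014% in PLZF-Flag. In WT GMPs 11 members ranked among the 1000 highest genes, whereas the highest member in 416b cells, Hist1h4i, ranked 7623 of 13238 listed genes. The makeup differed too: H1 gave 4.06% and H2A 39.4% of the histone counts in Empty vector, against 34.5% and 6.19% in WT-A. The Empty vector H2A share includes Hist1h2ao and Hist1h2ap, which were listed with the same value (448) and were both counted. Across the 65 members the WT GMP mean and the Empty vector value had a Spearman's rho of -0.30, a description over genes that share libraries. Members annotated for at least 100 bases past the stem-loop, where a poly(A) site could follow, had a median Empty vector value of 59.9 (25 genes). The other members with a stem-loop match had 33.9 (37 genes), with ranges that overlapped almost entirely (4.24 to 611 and 6.66 to 448). Listed members without a match, such as Hist2h2be at 548, were in neither group.

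Between PLZF-Flag and Empty vector, few histone genes in 416b cells had an interval away from 0. There was 1 library per condition, so no test was possible, and intervals cover counting error only. The log2 ratio of PLZF-Flag over Empty vector was below 0 for 41 of the 57 members with a mean of at least 10, against 50% of all 11836 genes with that mean. The median was -0.24, beside 0.00 over all these genes and -0.02 over the 4165 genes in the members' range of levels. It was -0.13 over the 10 members with a mean of at least 100 and -0.35 over all 65 listed. The 95% exact binomial interval lay below 0 for 7 of the 57 members, against 16% of all genes and 11.1% of those in the members' range. It lay above 0 for 1 member, against 16.1% and 7.61%. A log2 ratio of -1 or lower was found for 2 members, against 0.912% of all genes and 2.21% of those in the range, and one of 1 or higher for 1 member, against 0.498% and 1.27%.

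The H1 class had the lowest median ratio of the 5 classes. All 4 measured H1 genes were below 0 (median -0.68), with Hist1h1c at 108 normalized counts without and 77.7 with PLZF-Flag (-0.47 on the log2 scale, interval -0.97 to -0.001) and Hist1h1e at 53.3 and 28.1 (-0.90, -1.77 to -0.16). H3 followed, with 11 of 12 below 0 (median -0.36). Its lowest were Hist1h3f at 16.3 and 4.96 (-1.54, -4.09 to -0.02), a handful of reads, and Hist1h3b at 35.7 and 16.5 (-1.07, -2.24 to -0.13). Hist2h3b (-0.99, -2.17 to -0.05) and the H2A genes Hist1h2ab (-0.83, -1.35 to -0.35) and Hist1h2ah (-0.74, -1.27 to -0.25) also had intervals below 0. H2B (10 of 16 below 0, median -0.16), H2A (10 of 15, median -0.11) and H4 (6 of 10, median -0.01) lay closer to 0. Hist1h2bb was the only member with an interval above 0, at 6.66 and 21.5 (1.55, 0.42 to 2.99).

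All 10 members with a mean of at least 100 in 416b cells had intervals that included 0. For Hist1h4i, Empty vector cells gave 611 and PLZF-Flag cells 603 (-0.02 on the log2 scale, interval -0.20 to 0.15), and Hist1h4j had 235 in each (-0.001, -0.29 to 0.28). Hist2h2be, a gene without a stem-loop match, had 548 and 492 (-0.15, -0.35 to 0.04), although it was among the lower members in GMPs with 201 and 319 in WT and 373 and 320 in mutant. Hist1h2ao and Hist1h2ap were both listed with exactly 448 and 416 (-0.11, -0.32 to 0.10). Their GMP values differed from each other, with 551, 303, 898 and 1665 for Hist1h2ao and 245, 267, 561 and 1113 for Hist1h2ap. Hist1h2af (166 and 140), Hist2h2aa1 (173 and 140), Hist2h2aa2 (174 and 140), Hist1h2ag (92 and 116) and Hist1h2bc (110 and 98.3) made up the rest of the 10. Hist1h2bq and Hist1h2br also shared both values, at 118.5 and 49.5 times what 1 read is worth, and Hist2h3c1 and Hist2h3c2 did so at 84.7 and 66.1, so these pairs are not separate measurements. Hist2h2aa1 and Hist2h2aa2 nearly did, at 286 and 287 reads in Empty vector and 85 each in PLZF-Flag. The counts of members given here keep the genes of each pair apart.

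**Figure D5:**
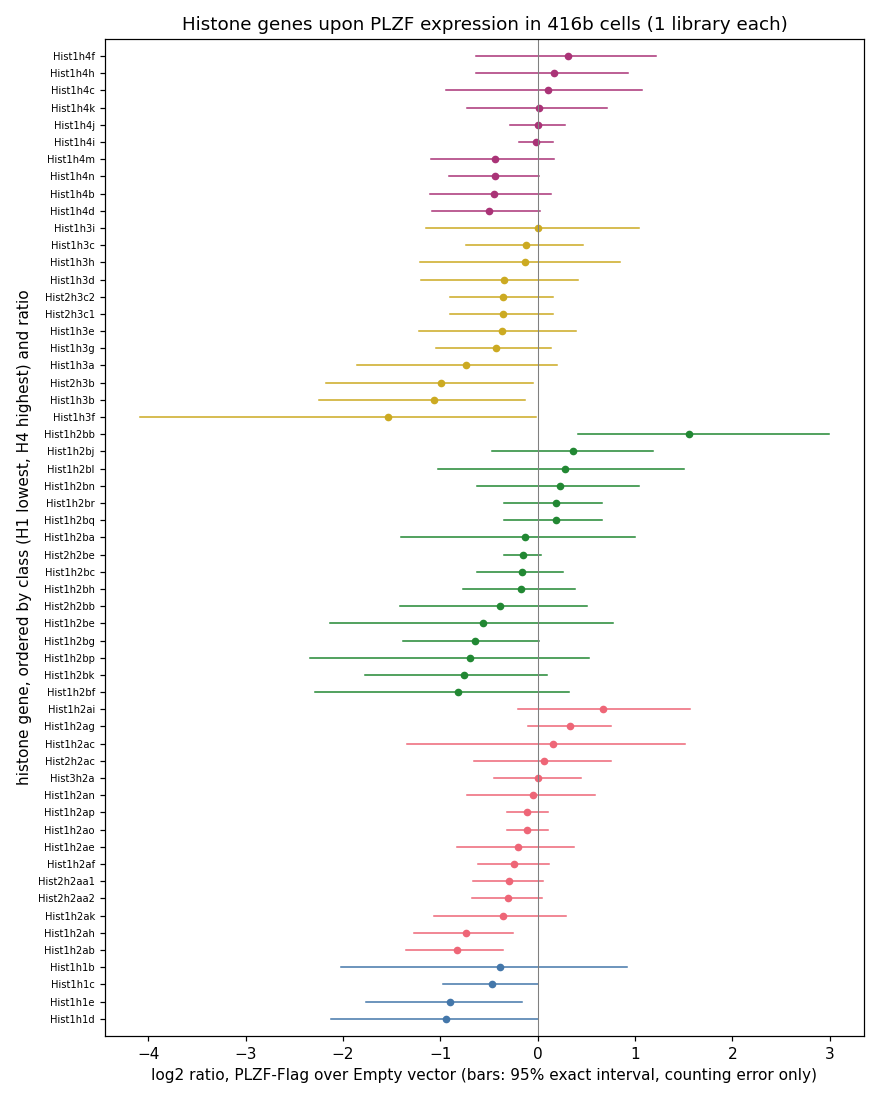
Log2 ratio of PLZF-Flag over Empty vector in 416b cells for the 57 histone members with a mean of at least 10, ordered by class. Points are ratios and bars 95% exact binomial intervals (counting error only, 1 library each). Nearly all bars cross 0, with 7 below it and 1, that of Hist1h2bb, above.

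The genes around the histone mRNAs were at similar levels in both 416b libraries. Slbp had 4061 and 4060, Npat 2046 and 1966, and the medians of the lists were 0.01 for 3-prime processing and decay, -0.01 for transcription and locus body, 0.02 for chaperones, 0.01 for S phase, 0.02 for G2/M and -0.07 for histone variants. Of the other RNAs without a poly(A) tail, only Rmrp and Rpph1 had a mean of at least 10, at log2 ratios of -0.63 and -0.95.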

How the data were processed

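RNA-seq of GMPs (2 WT and 2 Zbtb16lu/lu libraries, stranded rRNA-depleted total RNA, paired-end) and of 416b cells (SMART-Seq cDNA, single-end, 1 library with Empty vector and 1 with PLZF-Flag) was used. Per the study's methods and processing notes, alignment to mm10 used Subread and counting per gene used featureCounts 1.5.0. The signal values the authors deposited are those counts after division by a DESeq2 size factor per library, here called normalized counts. Their own log2 values, fold changes and p-values were not used. The 416b values were multiples of what 1 read is worth, and 78.4% and 84.7% of them were whole within 0.02, with sums of 54529788 and 19995794 reads in Empty vector and PLZF-Flag. Fractional reads were rounded for intervals. No rescaling tried moved the median of all genes by over 0.1 on the log2 scale.

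Genes with at least 10 in at least 2 GMP libraries were tested with limma 3.58.1 (trend, log2(value + 1), genotype only, R 4.3.3). A count model was not run on GMPs. Exact intervals and permutation tests used scipy 1.17.1. Scripts were tested on simulated data. Gene models were GENCODE M21, matched by symbol for all 70 histone genes. The members and gene lists were chosen with earlier results of these data known. Genes named were, per class, the 3 highest per kb of exon and the 2 largest and 2 smallest log2 fold changes, members with a 416b mean of at least 100, those nearest the threshold, and fixed regulators. Others were named after their values were seen. Of 41 samples, the ChIP-seq and ATAC-seq ones were not used here.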

Additional observations from a re-analysis of the deposited data

How the results depend on the processing

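All 69 members had log2 fold changes above 0 under another pseudocount (0.1 or 10), no value filter, equal library totals with or without histone genes, and quantile normalization, as did the 67 left at a mean of at least 100. None of these settings, nor a threshold of 0.05, gave a gene past adjustment. Leaving out each library in turn leaves 1 arm with a single library assumed to vary like the other pair, and gave 1 to 4662 genes and 0 to 63 members below an adjusted p of 0.08 in limma. The counts for each refit are given with the result, and the highest was without WT-A and the lowest without lu/lu-B. The member median then ranged from 0.60 to 1.16, H1 from 0.17 to 0.54, H2A from 0.84 to 1.56, H2B from 0.59 to 0.99, H3 from 0.49 to 1.16 and H4 from 0.69 to 1.40, each lowest without WT-B and highest without WT-A. Hist2h2bb ran from -0.056 without WT-B to 0.327 without WT-A, and Hist3h2bb-ps from -0.082 without lu/lu-B to 0.384 without lu/lu-A.

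Pairs within and outside the shared stamp were chosen after seeing the data. Within it, medians were 0.12 for H1, 0.53 for H2A, 0.41 for H2B, 0.31 for H3 and 0.50 for H4. Between the other pair they were 1.37 over all members, 0.59 for H1, 1.90 for H2A, 1.15 for H2B, 1.36 for H3 and 1.59 for H4. Among members with over 80% unique windows, also chosen afterwards, the H2A median was 0.76. In 416b cells the member median was -0.35 with no filter and -0.13 at a mean of at least 100. For these moves the cause was not tested. No paired analysis was possible because the labels carry no replicate numbers, and only 1 header stamp is shared between genotypes, which leaves no residual degrees of freedom for a block.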
